A study of Mus musculus with 8 samples.

Results

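The ionotropic glutamate receptor subunits Gria1 to Gria4 (AMPA receptors), Grin1, Grin2a and Grin2b (NMDA receptors) and Grik1, Grik2 and Grik5 (kainate receptors) were followed in the left hippocampus of male C57BL/6 mice aged 6 to 8 weeks. A probe was taken when its annotated gene symbol was 1 of these 10 names and it had a value on all 8 arrays, which gave 12 probes for 8 genes among 16588 probes with values. All 15 annotated probes of the 10 genes were looked up. The 2 probes of Grin1 and the 1 probe of Grik2 were blank on every array, so both genes were dropped. Gria1 and Gria3 had 3 probes each, and Gria2, Gria4, Grin2a, Grin2b, Grik1 and Grik5 had 1 probe each.

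The arrays came from 4 groups of 2 arrays each. KTL mice carried the homozygous Cav3.2 knockout and had trace fear conditioning (TFC), in which a tone and a foot shock are separated by an empty interval, and they were killed straight after the test of contextual memory. KNL mice carried the same knockout and were naive. WTL mice were wild type and had TFC with the same memory test, and WNL mice were wild type and naive. Training, shock and the memory test went together in KTL and WTL and cannot be told apart. Cav3.2 is the pore-forming subunit of a T-type calcium channel and is encoded by Cacna1h, and the knockout is constitutive. Per the methods the wild types were C57BL/6J and the knockout line had been backcrossed to C57BL/6 for several generations. RNA was pooled from 3 mice per group, and it is not stated whether the 2 arrays of a group held separate pools, so the p-values measure the spread between arrays, which may be technical. In whole hippocampus, fewer cells of a type and less RNA per cell cannot be told apart.

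Ionotropic glutamate receptors are tetramers that open an ion channel when glutamate binds. AMPA receptors, built of the Gria products GluA1 to GluA4, carry most fast excitatory transmission in the hippocampus, and their number at the synapse changes in long-term potentiation. NMDA receptors need the Grin1 product together with Grin2 subunits and admit calcium when glutamate binding coincides with depolarization, and kainate receptors, built of Grik products, act on both sides of the synapse. Gria transcripts are spliced in several places, and RefSeq (GRCm38.p6) lists 6 transcript records for Gria1 and 8 for Gria3. The transcripts that each probe matches are not given in the sources used here.

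Values are Cy5 intensities on a linear scale, with a floor of 100 applied before quantile normalization. A change was called when the limma p-value, adjusted over all 16588 probes, was under 0.01 and the change was over 2-fold, and errors are standard errors (SE) of the log2 change with n = 2 arrays per group. Array medians lay between 481 and 482. Arrays of the same group correlated at r = 0.979 to 0.993 and arrays of different groups other than KNL at 0.968 to 0.985, whereas KNL arrays correlated with arrays of other groups at only 0.852 to 0.938. Both KNL arrays stood apart, so a difference in their RNA or hybridization and the naive knockout state cannot be told apart. The Cacna1h probe had 1171 and 1395 in KTL, 1929 and 1377 in KNL, 2836 and 1838 in WTL, and 2732 and 2985 in WNL, and it was not called in KNL against WNL (log2 change -0.81, SE 0.251, limma adjusted p = 0.0303) or in KTL against WTL (-0.84, SE 0.251, limma adjusted p = 0.19). Its position relative to the deleted part is not given in the sources used here, so it does not check the genotype labels.

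The first comparison asked how naive knockout mice differed from naive wild types. In KNL against WNL, 3 of the 8 AMPA receptor probes were called, in both directions: 1 probe of Gria1 fell to 0.312 times its WNL level, 1 probe of Gria3 fell to 0.354 times its WNL level, another probe of Gria3 rose 2.08-fold, and no probe of Gria2 or Gria4 was called. The NMDA receptor probe Grin2b lay just inside the 2-fold limit, and no kainate receptor probe was called. In all, 1 of 12 probes rose, against 6.93% of all probes, and 2 of 12 fell, against 13.5% of all probes. The share called in either direction was 25% of the receptor probes and 20.4% of all probes. The share of all probes varied with brightness: 2.83% in the dimmest decile, 30% in decile 5 and 11.6% in the brightest. A share matched for brightness was not computed. The median log2 change was 0.06 over the 12 probes and 0.16 over all probes, and the median size of the change was 0.57 over the 12 probes and 0.63 over all probes, so the receptor probes as a group lay near the background of this comparison.

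**Figure D1:**
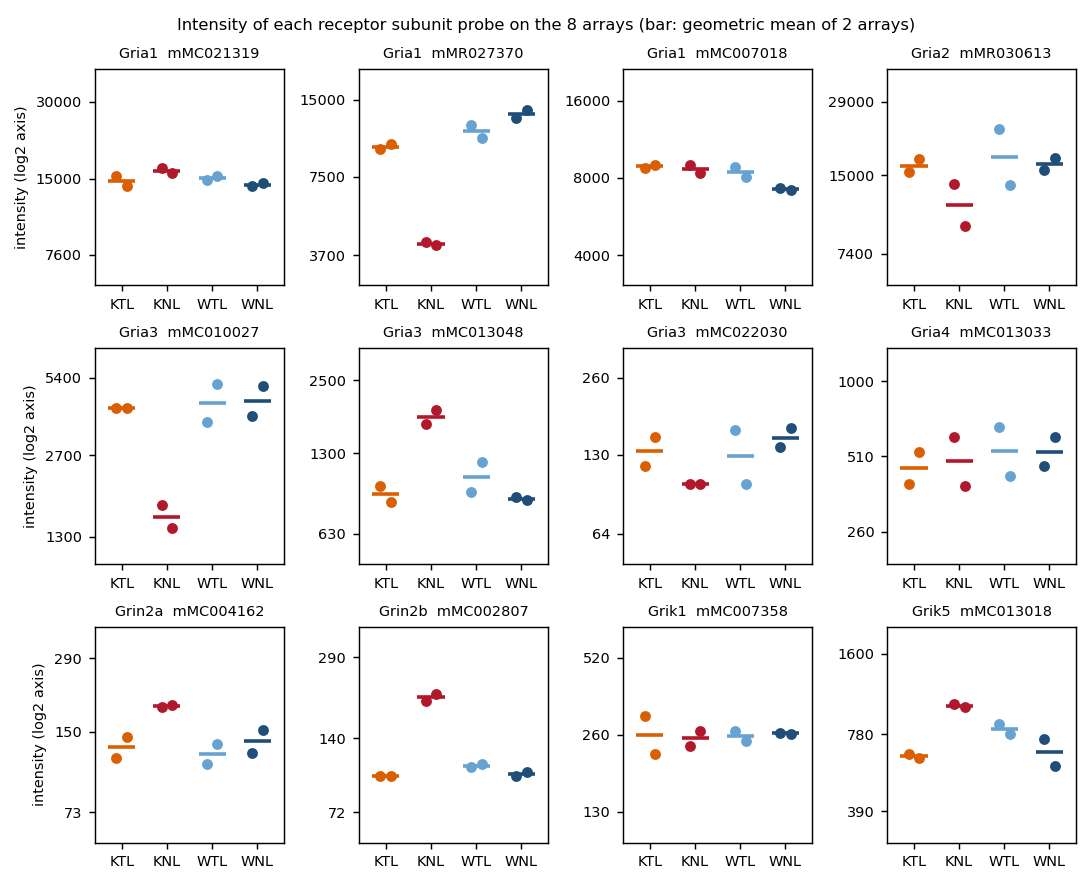
Intensity of the 12 receptor subunit probes on each array (log2 axis, each panel spanning the same fold range), with groups from left to right KTL, KNL, WTL and WNL, points for the 2 arrays and bars for their geometric mean. KNL stands clear of the other groups for probe mMR027370 of Gria1, probes mMC010027 and mMC013048 of Gria3, and the probe of Grin2b.

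Gria1 encodes GluA1, the AMPA receptor subunit best known for its addition to synapses in long-term potentiation. All 3 of its probes were among the brightest decile of the array. Probe mMR027370 had 9631 and 10050 in KTL, 4169 and 4058 in KNL, 11981 and 10655 in WTL, and 12698 and 13693 in WNL. Both KNL values were under 0.5 times every other value, and the KNL and WNL arrays did not overlap. The log2 change in KNL against WNL was -1.68 (SE 0.108, 95% interval -1.94 to -1.42, limma adjusted p = 0.00017), and it stayed between -1.74 and -1.63 and called when any 1 array was left out.

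The other Gria1 probes did not follow it. Probe mMC021319 had 15418 and 14088 in KTL, 16493 and 15845 in KNL, 14825 and 15468 in WTL, and 14026 and 14408 in WNL. Probe mMC007018 had 8760 and 9021 in KTL, 8972 and 8364 in KNL, 8797 and 8046 in WTL, and 7322 and 7164 in WNL. For both probes the KNL values lay above the WNL values. The log2 changes were 0.19 (SE 0.101, 95% interval -0.06 to 0.43, limma adjusted p = 0.149) for mMC021319 and 0.26 (SE 0.102, 95% interval 0.01 to 0.51, limma adjusted p = 0.0658) for mMC007018, so changes beyond 2-fold lay outside both intervals.

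The disagreement between probes was tested on the log2 difference between the brighter and the dimmer probe of each pair, in 1 limma fit over the 2400 pairs of probes from the 1751 genes with several probes. The difference mMC021319 minus mMR027370 was 0.68 and 0.49 in KTL, 1.98 and 1.97 in KNL, 0.31 and 0.54 in WTL, and 0.14 and 0.07 in WNL. It was larger in KNL than in WNL by 1.87 (SE 0.193, limma adjusted p = 8.74e-05), and the difference mMR027370 minus mMC007018 was smaller in KNL, by -1.94 (SE 0.183, limma adjusted p = 5.5e-05). The pair mMC021319 and mMC007018 differed by -0.07 between the groups (SE 0.19, 95% interval -0.50 to 0.36, limma adjusted p = 0.78). Over the 8 arrays, mMR027370 had Pearson r = -0.81 with mMC021319 and -0.48 with mMC007018, and the other pair had r = 0.46, as a description of arrays that share their group structure.

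Gria2 encodes GluA2, the subunit that makes AMPA receptors nearly impermeable to calcium. Its probe had 15383 and 17289 in KTL, 13869 and 9531 in KNL, 22702 and 13737 in WTL, and 15779 and 17583 in WNL. Both KNL values lay below both WNL values, but the arrays of KNL and of WTL were far apart from each other, and the log2 change of -0.53 in KNL against WNL was not called (SE 0.275, 95% interval -1.20 to 0.13, limma adjusted p = 0.132). A 2-fold fall therefore stayed inside the interval.

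Gria3 encodes GluA3, which in hippocampal pyramidal cells mostly assembles with GluA2. Its 3 probes differed widely in brightness and went different ways. Probe mMC010027 had 4117 and 4117 in KTL, 1719 and 1403 in KNL, 3641 and 5117 in WTL, and 3831 and 5024 in WNL, and it fell in KNL against WNL (log2 change -1.50, SE 0.213, 95% interval -2.01 to -0.98, limma adjusted p = 0.0019). Probe mMC013048 had 966 and 834 in KTL, 1682 and 1919 in KNL, 917 and 1197 in WTL, and 879 and 850 in WNL, and it rose (1.06, SE 0.162, 95% interval 0.67 to 1.45, limma adjusted p = 0.00245). In both probes the KNL arrays overlapped with no other group, below the others in the one and above them in the other.

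The dimmest Gria3 probe, mMC022030, had 118 and 153 in KTL, 100 and 100 in KNL, 163 and 100 in WTL, and 139 and 165 in WNL. Both KNL arrays were at the floor, so the KNL mean was at least 1.51-fold below the WNL mean. At the floor the log2 change was -0.60 (SE 0.25, 95% interval -1.20 to 0.003, limma adjusted p = 0.0767). The change was not called, and its interval included no change. The interval rests on KNL values set to the floor and does not limit a larger fall. Calls of the brighter Gria3 probes were lost without some single arrays, where fewer of all probes were called as well. The fall of mMC010027, -1.50 with all arrays, was not called without KNL 1 (-1.65), KNL 2 (-1.35) or WNL 2 (-1.30). The rise of mMC013048, 1.06 with all arrays, was not called without KNL 1 (1.15), KNL 2 (0.96), WNL 1 (1.08) or WNL 2 (1.03).

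The difference between the 2 brighter Gria3 probes did not rest on any 1 array. The log2 difference mMC010027 minus mMC013048 was 2.09 and 2.30 in KTL, 0.03 and -0.45 in KNL, 1.99 and 2.10 in WTL, and 2.12 and 2.56 in WNL. It was smaller in KNL than in WNL by -2.55 (SE 0.241, limma adjusted p = 5.5e-05), and it was still called when any 1 array was left out. Both pairs with mMC022030 were set by the floor, at which its KNL arrays lay. The difference mMC013048 minus mMC022030 was larger in KNL by at least 1.65 (limma adjusted p = 0.00358 at the floor, and 2.15 with no floor, limma adjusted p = 0.00454), a call that was lost without KNL 1, KNL 2, WNL 1 or WNL 2 (1.50 to 1.80). The pair mMC010027 and mMC022030 was not called, with -0.90 at the floor (limma adjusted p = 0.0558) and -0.41 with no floor (limma adjusted p = 0.503). Together 4 of 6 receptor probe pairs were called different between KNL and WNL, 1 of them as a bound, against 30.5% of all pairs. The pairs share probes, so they are not separate observations. Each called Gria1 pair holds mMR027370, and each called Gria3 pair holds mMC013048. Gria3 was 1 of 17 genes, 0.971% of the 1751 genes with several probes, that had a probe called higher and another called lower. As given above, each of these Gria3 calls was lost without some single arrays.

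**Figure D2:**
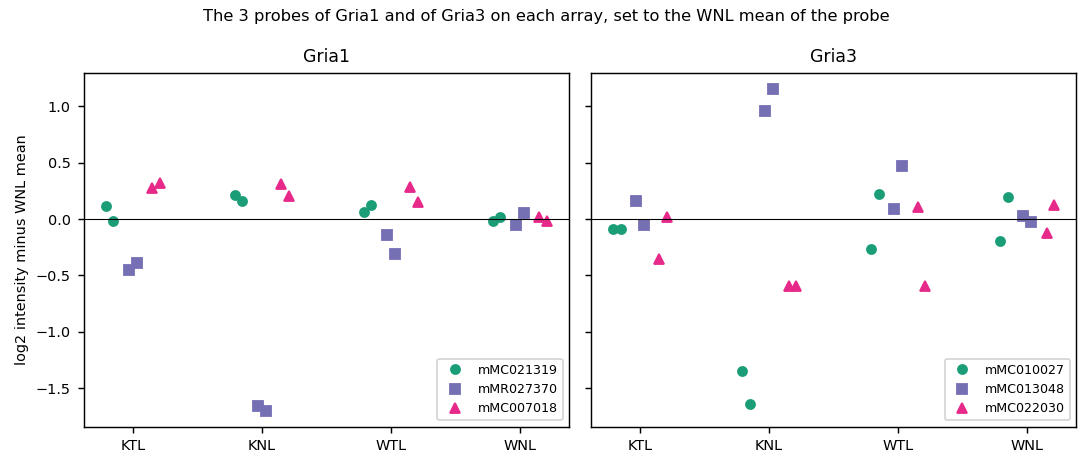
Log2 intensity of the 3 probes of Gria1 (left) and of Gria3 (right) on each array, minus the WNL mean of the same probe, by group in the order KTL, KNL, WTL and WNL. In KNL, Gria1 probe mMR027370 lies far below the other 2 Gria1 probes, and Gria3 probes mMC010027 and mMC013048 lie on opposite sides of 0.

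Gria4 encodes GluA4, which in the adult hippocampus is found mainly in interneurons. Its probe had 398 and 530 in KTL, 606 and 393 in KNL, 667 and 427 in WTL, and 470 and 606 in WNL, and the groups overlapped. The log2 change in KNL against WNL was -0.13 (SE 0.307, 95% interval -0.87 to 0.61, limma adjusted p = 0.732), the largest SE among the 12 probes.

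The NMDA receptor probes were dim. Grin2b encodes GluN2B, a subunit of NMDA receptors with slow closing and strong binding of CaMKII. Its probe had 100 and 100 in KTL, 195 and 209 in KNL, 108 and 111 in WTL, and 100 and 103 in WNL, so all arrays outside KNL were at or near the floor. KNL was 1.99-fold above WNL (log2 change 0.99, SE 0.096, 95% interval 0.76 to 1.22, limma adjusted p = 0.000534), and with a floor of 50 or no floor, where the other arrays keep their own low values, the change was 1.04 and was called. Probes of the same brightness, the dimmest decile of the array, had a median log2 change of 0.20.

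Grin2a encodes GluN2A, which becomes more abundant in the hippocampus as it matures. Its probe had 119 and 143 in KTL, 188 and 191 in KNL, 112 and 135 in WTL, and 124 and 152 in WNL. Both KNL values lay above those of every other group, and the change in KNL against WNL was not called (0.46, SE 0.162, 95% interval 0.07 to 0.85, limma adjusted p = 0.0451). Probes of its brightness, in the next decile up, had a median log2 change of 0.34.

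Of the kainate receptor probes, Grik5 encodes GluK5, a high-affinity subunit that works only with GluK1 to GluK3. Its probe had 654 and 631 in KTL, 1024 and 991 in KNL, 853 and 779 in WTL, and 745 and 587 in WNL. The KNL values were the highest of the 4 groups, and the log2 change of 0.61 was not called (SE 0.138, 95% interval 0.28 to 0.94, limma adjusted p = 0.0101). Grik1, which encodes GluK1, had 309 and 219 in KTL, 236 and 268 in KNL, 269 and 246 in WTL, and 265 and 261 in WNL, with a log2 change of -0.06 (SE 0.176, 95% interval -0.49 to 0.36, limma adjusted p = 0.77). Across the 9 probes that were not called, 6 intervals lay within 2-fold in both directions and 3 reached it.

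**Figure D3:**
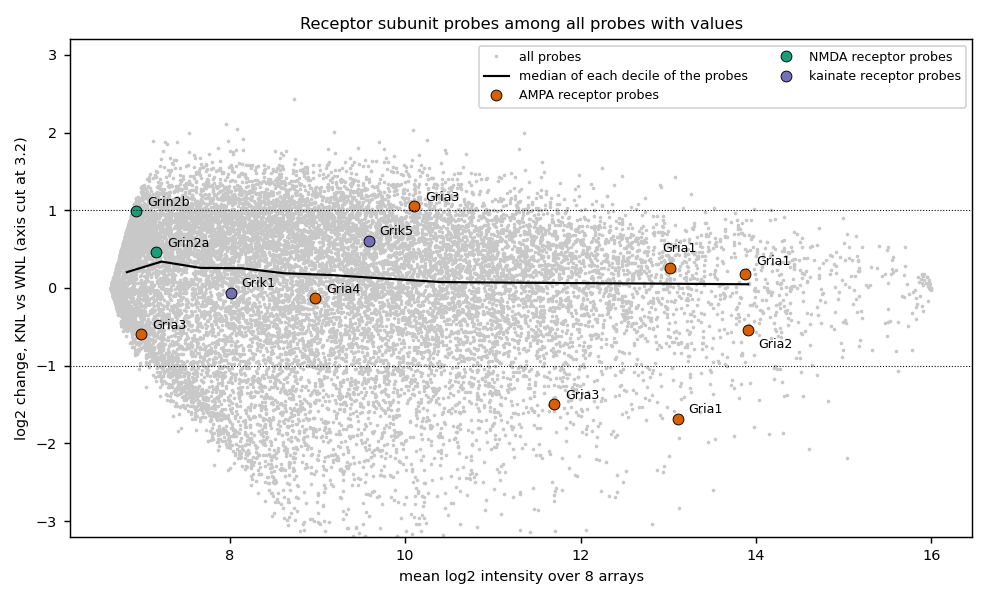
Log2 change in KNL against WNL (vertical axis) against the mean log2 intensity over 8 arrays (horizontal axis), for all 16588 probes in grey (the largest falls lie beyond the axis) and the 12 receptor subunit probes in colour, with dotted lines at 2-fold and a line for the median of each decile of the probes by intensity, which runs from 0.34 at its highest to 0.05 in the brightest decile. The 3 Gria1 and the Gria2 probes sit at the bright end, and the Grin2a and Grin2b probes at the dim end.

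The next comparison asked how trained knockout mice differed from naive ones. It shares the KNL arrays with the comparison above, so the 2 sets of changes are not independent. In KTL against KNL, 2 of 12 probes rose, against 12.6% of all probes, and 2 of 12 fell, against 7.5% of all probes. The share called in either direction was 33.3% of the receptor probes and 20.1% of all probes.

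Gria1 probe mMR027370 was 2.39-fold higher in KTL than in KNL (log2 change 1.26, SE 0.108, limma adjusted p = 0.000473), and Gria3 probe mMC010027 was 2.65-fold higher (1.41, SE 0.213, limma adjusted p = 0.00263). Gria3 probe mMC013048 fell to 0.499 times its KNL level (SE 0.162 on the log2 scale, limma adjusted p = 0.00323), a value at the edge of the 2-fold limit. The Grin2b probe was at least 2.02-fold lower, since both KTL arrays were at the floor (limma adjusted p = 0.000618). Grik5 changed by -0.65 (SE 0.138, limma adjusted p = 0.00826), which is under 2-fold, and Gria2 by 0.50 (SE 0.275, limma adjusted p = 0.154). Without any 1 of the KTL or KNL arrays neither Gria3 probe was called (1.26 to 1.55 for mMC010027 and -1.11 to -0.90 for mMC013048), and without KNL 2 Grin2b was not called (-0.96).

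The same 4 of 6 probe pairs were called different in KTL against KNL as in KNL against WNL, again 1 of them as a bound, against 29.1% of all pairs. For Gria1 the change of the difference was -1.39 for mMC021319 minus mMR027370 (SE 0.193, limma adjusted p = 0.000487) and 1.22 for mMR027370 minus mMC007018 (SE 0.183, limma adjusted p = 0.000698). For Gria3 it was 2.41 for mMC010027 minus mMC013048 (SE 0.241, limma adjusted p = 9.41e-05). For mMC013048 minus mMC022030, with KNL at the floor in the second, it was -1.43 or lower (limma adjusted p = 0.00817 at the floor, and -1.92 with no floor, limma adjusted p = 0.00832), and only the last of the 4 was lost when any 1 array of KTL, KNL or WNL was left out (-1.72 to -1.14 over all arrays left out in turn). Gria3 was 1 of 12 genes, 0.685% of those with several probes, with probes called in both directions. Its place there rests on the fall of mMC013048, which lay at the edge of the 2-fold limit (-1.002).

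**Figure D4:**
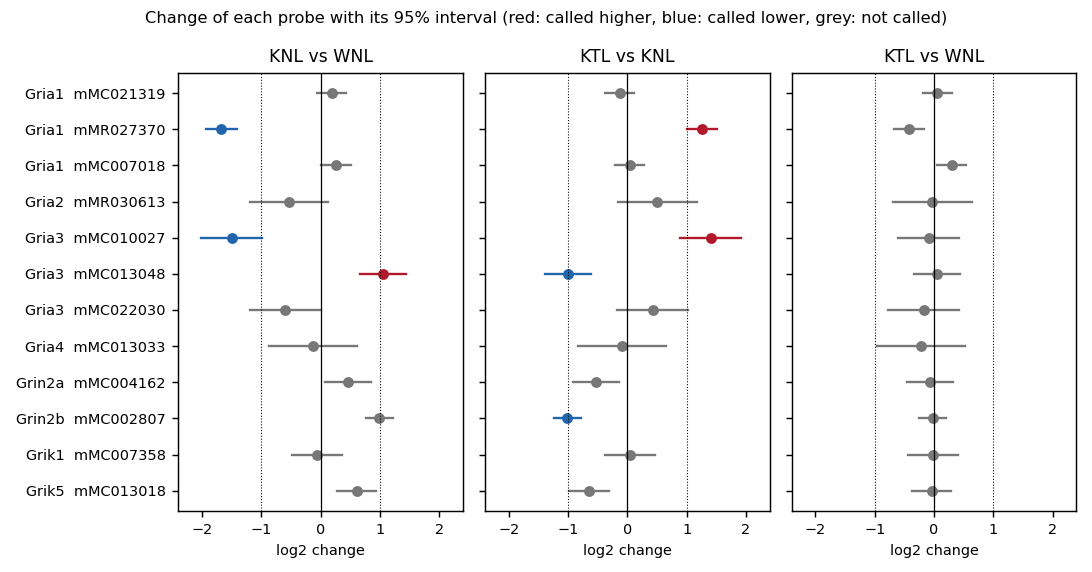
Log2 change of each receptor subunit probe (points) with its 95% interval (lines) in KNL against WNL, KTL against KNL and KTL against WNL, with dotted lines at 2-fold; red marks a call higher, blue a call lower and grey no call. The 3 calls of the left panel and the 4 of the middle panel have no counterpart in the right panel, where every interval lies within 2-fold. The Grin2b interval there rests on KTL values set to the floor and does not limit a larger fall.

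The knockout was also compared with wild type among trained mice, and trained with naive mice among wild types. In KTL against WTL none of the 12 probes was called, against 0.0241% of all probes, and 1 probe had an unadjusted p under 0.05 by limma (2898 of all probes did). The 12 log2 changes ran from -0.34 to 0.09, with the lowest at Grik5 (SE 0.138, limma adjusted p = 0.276). In WTL against WNL none of the 12 was called, against 0% of all probes, none had an unadjusted p under 0.05 by limma (2506 of all probes did), and the changes ran from -0.24 to 0.30. In both comparisons all 12 intervals lay within 2-fold in each direction. Gria3 probe mMC022030 on array WTL 2 (73) and Grin2b on WNL 1 (92.74) were raised to the floor. The intervals that use these values rest in part on the floor. For Grin2b in KTL against WTL both KTL arrays were set to the floor. The KTL mean was thus at least 1.09-fold below the WTL mean, and the interval does not limit a larger fall. At the floor the change was -0.13 (SE 0.096, limma adjusted p = 0.528).

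KTL was set against WNL to see how far trained knockout mice lay from naive wild types. None of the 12 probes was called, against 0.0422% of all probes, and 2 probes had an unadjusted p under 0.05 by limma (1913 of all probes did). All 12 intervals lay within 2-fold. For Grin2b both KTL arrays and WNL 1 were set to the floor, so no bound can be given. Its change at the floor was -0.02 (SE 0.096, limma adjusted p = 0.973), and its interval does not limit a larger fall. Gria1 probe mMR027370 had the lowest change, with 9631 and 10050 in KTL against 12698 and 13693 in WNL, which did not overlap (-0.42, SE 0.108, 95% interval -0.68 to -0.16, limma adjusted p = 0.235). Gria1 probe mMC007018 had the highest, 0.30 (SE 0.102, limma adjusted p = 0.357).

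Whether the knockout effect differed between trained and naive mice was tested as an interaction, the KTL minus WTL change less the KNL minus WNL change. It was called for 4 of 12 probes, against 21.8% of all probes. The difference was 1.48 for Gria1 probe mMR027370 (SE 0.153, limma adjusted p = 0.00148), 1.43 for Gria3 probe mMC010027 (SE 0.301, limma adjusted p = 0.00999), and -1.28 for Gria3 probe mMC013048 (SE 0.229, limma adjusted p = 0.0061). For Grin2b, with both KTL arrays and 1 WNL array at the floor, it was -1.12 (limma adjusted p = 0.0021). With no floor it was -1.37 (limma adjusted p = 0.00258). Grik5 had -0.95 (SE 0.195, limma adjusted p = 0.00917), under 2-fold. No call was left without KTL 1 or without KTL 2, which leaves 1 array in that group, and fewer of all probes were called as well. The value of mMR027370 was then 1.51 and 1.45. Over the 8 arrays left out in turn, the call of Gria1 probe mMR027370 and that of Grin2b were kept 6 times each, that of Gria3 probe mMC013048 1 time and that of Gria3 probe mMC010027 0 times (1.18 to 1.68).

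Other genes of the glutamate synapse were counted on their brightest probe. Of 5 measured genes for further ionotropic subunits, among 8 listed, 1 rose in KNL against WNL and none fell, a share of 20% against 20.4% of all probes. This was Grin2d, an NMDA receptor subunit, with 150 and 129 in KTL, 250 and 353 in KNL, 139 and 183 in WTL, and 155 and 101 in WNL (1.25, SE 0.271, limma adjusted p = 0.00855). In KTL against KNL 1 fell, a share of 20% against 20.1% of all probes. This was Grid1, the delta receptor subunit GluD1, named after its values were seen (-1.25, SE 0.264, limma adjusted p = 0.00805).

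Among the auxiliary proteins of the receptors, 15 of 24 listed were measured, of which 2 rose and 1 fell in KNL against WNL, a share of 20% against 20.4% of all probes. All 3 are TARPs, transmembrane proteins that carry AMPA receptors to the surface and slow their closing. Cacng4 had 364 and 374 in KTL, 532 and 559 in KNL, 357 and 397 in WTL, and 267 and 230 in WNL (1.14, SE 0.119, limma adjusted p = 0.000696), and Cacng8 had 381 and 372 in KTL, 500 and 508 in KNL, 330 and 289 in WTL, and 275 and 220 in WNL (1.03, SE 0.139, limma adjusted p = 0.0016). Cacng3 had 232 and 259 in KTL, 100 and 100 in KNL, 210 and 183 in WTL, and 233 and 255 in WNL. With both KNL arrays at the floor, Cacng3 was at least 2.44-fold lower in KNL than in WNL (limma adjusted p = 0.000463). In KTL against KNL 2 of the 15 rose and none fell, a share of 13.3% against 20.1% of all probes: Cacng3 was at least 2.45-fold higher, and Neto2, a kainate receptor partner named after its values were seen, changed by 1.01 (SE 0.214, limma adjusted p = 0.00811).

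Of the scaffold and trafficking proteins, 20 of 26 listed were measured, of which 1 rose and 3 fell in KNL against WNL, a share of 20% against 20.4% of all probes. The median log2 change was 0.43 over the 20 genes and 0.16 over all probes. Dlg1, which encodes the scaffold SAP97, a binding partner of GluA1, had 746 and 756 in KTL, 220 and 183 in KNL, 680 and 540 in WTL, and 692 and 755 in WNL (-1.85, SE 0.153, limma adjusted p = 0.00033). Homer1, which links metabotropic receptors to the postsynaptic density, had 2750 and 3546 in KTL, 1007 and 680 in KNL, 3934 and 2553 in WTL, and 2348 and 3634 in WNL (-1.82, SE 0.323, limma adjusted p = 0.00412). Cask, a kinase-like scaffold that binds Dlg1, changed by -1.68 (SE 0.205, limma adjusted p = 0.00114). The 1 that rose was Shank3, a postsynaptic scaffold named after its values were seen (1.13, SE 0.195, limma adjusted p = 0.0038). In KTL against KNL 5 rose and none fell, a share of 25% against 20.1% of all probes: Dlg1 (1.90), Homer1 (1.92), Cask (1.70) and, named after their values were seen, Dlg2 (1.05) and Dlgap1 (1.04).

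Of 4 measured metabotropic receptors among 8 listed, none rose and 1 fell in KNL against WNL, Grm7, a presynaptic receptor that damps release, with 493 and 506 in KTL, 191 and 173 in KNL, 571 and 501 in WTL, and 470 and 531 in WNL (-1.46, SE 0.123, limma adjusted p = 0.00034). Of 12 measured genes for glutamate synthesis, release and uptake among 17 listed, none rose and 3 fell, and the share called was 25% in this list and 25% among the metabotropic receptors, against 20.4% of all probes (13.5% for falls alone). Srr, the serine racemase that makes the NMDA receptor co-agonist D-serine, had 1552 and 1550 in KTL, 482 and 470 in KNL, 1409 and 1452 in WTL, and 1522 and 1503 in WNL (-1.67, SE 0.092, limma adjusted p = 0.000139). Got2, a mitochondrial aminotransferase, changed by -1.24 (SE 0.221, limma adjusted p = 0.00418), and Slc17a6, the vesicular transporter VGLUT2, by -1.15 (SE 0.108, limma adjusted p = 0.000463). In KTL against KNL the same 1 metabotropic receptor and the same 3 genes rose and none fell, again 25% of each list against 20.1% of all probes.

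The probes with 1 gene symbol most like each receptor probe called in KNL against WNL, over the 8 arrays, by Pearson r of log2 values, all had the KNL arrays apart from the rest. For Gria1 probe mMR027370 they were Usp32 (r = 0.999), Bex4 (r = 0.9976) and Cttnbp2 (r = 0.9968). For Gria3 probe mMC010027 they were Ipp (r = 0.9963), Prdx6 (r = 0.9939) and Pde8b (r = 0.9933), and for Gria3 probe mMC013048 they were Zbtb39 (r = 0.9997), Ankrd2 (r = 0.9974) and Lypd2 (r = 0.9968). With only 4 groups of arrays such likeness was common: 1189, 647 and 1297 probes had r over 0.95 with these 3 receptor probes in the same order.

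Markers of other and of neuronal cell types were counted on their brightest probes as well, and their part in the receptor changes was not tested. In KNL against WNL, 20.4% of all probes were called. The share was 50% of the measured markers for interneurons and for microglia, 40% for endothelium and 28.6% for choroid plexus. It was 20% for pyramidal neurons, 16.7% for astrocytes, and 0% for oligodendrocytes and for their precursors. A sum of intensities follows its brightest markers, so each is given with the median log2 change of its list and the markers called. The 10 markers listed for pyramidal neurons summed to 58859 to 63088 in KNL and 61292 to 64840 in WNL, with a median change of -0.19. Of these 2 fell, Neurod6 (-3.19) and Prox1 (-1.81, with KNL at or near the floor at 117 and 100). Prox1 marks dentate granule cells rather than pyramidal cells. The 6 measured interneuron markers summed to 40686 to 42462 in KNL and 46656 to 50627 in WNL (median -0.72), where Npy rose (1.33), and Slc32a1 (-2.31) and Vip, at least 2.39-fold lower with KNL at the floor, fell.

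The 6 microglial markers summed to 2919 to 3243 in KNL and 5452 to 5595 in WNL (median -1.12), and Ctss (-2.75), P2ry12 (at least 5.58-fold lower, with KNL at the floor) and Tyrobp (-1.11) fell. The 6 astrocyte markers summed to 33395 to 38507 in KNL and 47098 to 47526 in WNL (median -0.43), and Gfap fell (-1.23). The 6 oligodendrocyte markers summed to 44227 to 50687 in KNL and 68828 to 70852 in WNL, but the median change was 0.02 and none was called. The 3 precursor markers of that lineage summed to 3546 to 3832 in KNL and 2715 to 2859 in WNL (median 0.38), with none called. The 5 endothelial markers summed to 4556 to 4607 in KNL and 3189 to 3659 in WNL (median 0.31), where Pecam1 rose (1.03) and Flt1 fell, at least 4.46-fold with KNL at the floor.

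Choroid plexus markers differed between the knockout and the wild type groups in trained mice too. The 7 measured markers summed to 19595 to 20451 in KTL, 13520 to 17481 in KNL, 40229 to 42697 in WTL, and 53838 to 54980 in WNL, and the bright Ttr probe made up most of each sum. In KNL against WNL the median change was -0.38, and 2 fell, Enpp2 (-2.14, with KNL at or near the floor at 100 and 109) and Ttr (-2.07). In KTL against WTL it was -1.03 with 1 marker lower, in KTL against WNL -1.46 with 2 lower, and in KTL against KNL -0.69 with 1 higher and 3 lower. In the same order the shares called were 14.3%, 28.6% and 57.1%, against 0.0241%, 0.0422% and 20.1% of all probes. In KTL against WTL and in KTL against WNL no marker of the other 7 lists was called. No marker measured was at the floor on all 8 arrays.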

How the data were processed

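Intensities of 29922 probes on 8 Mouse Whole Genome OneArray arrays (Cy5, 1 colour) were used. The authors averaged technical replicates and, per their methods, applied a floor of 100 and quantile normalization; the deposited intensity values are linear, nearly equal in distribution between arrays and reach below that floor (6.64% to 6.86% of probes per array). A total of 13334 probes were blank on every array. Probe names came from the platform annotation, which gave 1 symbol for 13183 of the 16588 probes with values and none for 3405.

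Here a floor of 100, quantile normalization and log2 were applied, and limma 3.58.1 in R 4.3.3 was fitted to all 8 arrays with 1 coefficient per group (residual df 4, prior df 2.45), with Benjamini-Hochberg adjustment over all probes and a call at adjusted p under 0.01 and over 2-fold. Limma was used as the main test because 2 against 2 arrays allow only 6 splits for SAM, the test of the methods, which was an alternative. Folds are ratios of geometric means. Pairs of probes of a gene were fitted separately (prior df 5.32). The code was tested on simulated data. The number of arrays limits the precision. The receptor genes, the other gene lists and the tests were chosen with earlier results of these data known. Named genes were all receptor probes with values, the 3 genes with the largest change among those called in KNL against WNL on their brightest probe in each other list (glutamate synapse genes and cell type markers), the 3 probes most like each receptor probe called in KNL against WNL, and Cacna1h. Replicate numbers were checked for pairing: deviations of same-numbered arrays correlated at -0.25 to 0.43 between groups, so the numbers were not taken to pair arrays.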

Additional observations from a re-analysis of the deposited data

Results flagged for a closer look

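The knockout effect on 4 receptor probes differed between trained and naive mice by the interaction test of limma, over 2-fold and at an adjusted p under 0.01. The difference between the trained and the naive effect was 1.48 for Gria1 probe mMR027370, 1.43 for Gria3 probe mMC010027, and -1.28 for Gria3 probe mMC013048 on the log2 scale. For Grin2b it was -1.12 with both KTL arrays and 1 WNL array at the floor, and -1.37 with no floor. For all 4 the 2 KNL arrays lay apart from the other 6, and the other 3 groups lay within 2-fold of each other on their means. None of the 4 was called without KTL 1 or without KTL 2, probe mMC010027 was called 0 times and probe mMC013048 1 time over the 8 arrays left out in turn, and 2 of the 4 were called with the replicate number as a block. The interaction was called for 21.8% of all probes, and for fewer of them in each of these settings.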

How the results depend on the processing

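Results were recomputed under up to 20 alternatives, of which 8 left out 1 array each; SAM was not run for the interaction and the probe pairs, nor the fit on only the groups compared for the interaction, which needs all 4, and probes at or under 200 drop out of the filter on dim probes. The counts in KNL against WNL (1 probe higher, 2 lower) became 2 higher with a floor of 50 or no floor, 1 lower when only the groups compared entered the fit, and 4 higher at an adjusted p under 0.05 with no fold minimum. The receptor counts in KTL against KNL (2 higher, 2 lower) became 0 lower with cyclic loess, 1 lower among probes over 200 on average, and 4 lower at an adjusted p under 0.05 with no fold minimum. Over all probes, the 3332 calls in either direction became 3380, 3195 and 9933 in the same order. Tested against a 2-fold change, 0 receptor probes were called higher and 0 lower in both comparisons and 0 in the interaction, and 2 probe pairs in KNL against WNL and 1 pair in KTL against KNL were left. Over all probes this test left 459 in KNL against WNL, 251 in KTL against KNL and 153 in the interaction. Over all pairs it left 145 and 97 in the 2 comparisons. With the replicate number as a block, the interaction was called for 2 receptor probes instead of 4, and for 2447 of all probes instead of 3610. The receptor counts of KNL against WNL (1 and 2) and KTL against KNL (2 and 2) did not move. When single arrays were left out, the counts were 0 to 1 higher and 1 to 2 lower in KNL against WNL, 1 to 2 higher and 0 to 2 lower in KTL against KNL, 3 to 4 probe pairs in each, and 0 to 3 in the interaction. Small changes that were not called changed sign. Gria1 probe mMC007018 in KTL against KNL was -0.005 with cyclic loess and ran from -0.013 to 0.088 without single arrays. Without single arrays Gria4 ran from -0.44 to 0.185 in KNL against WNL, from -0.401 to 0.224 in KTL against KNL and from -0.41 to 0.233 in the interaction, and Grik1 from -0.152 to 0.026, from -0.198 to 0.296 and from -0.166 to 0.328 in the same order. In KTL against WTL, WTL against WNL and KTL against WNL, no receptor probe was called under any alternative. The cause of these shifts was not tested. Where both arrays of a group lie at the floor, only a bound can be given.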
